A study of Homo sapiens with 12 samples.

Results

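The histone genes of the gene count table were taken by their current symbols, namely those starting with H1- and a digit or with H2AC, H2BC, H3C or H4C. With these symbols 91 of the 60671 genes in the table were analysed. They were 71 histone genes, 19 pseudogenes and 1 antisense RNA (H1-10-AS1). Poly(A) RNA was sequenced from BJ-5ta cells, human fibroblasts immortalized with telomerase, as wild-type cells (WT) and as ΔLEO1 cells (Leo1), and the ΔLEO1 cells came from a single clone in which LEO1 had been knocked out by genome editing. Each genotype was sampled at 10% serum and after 10 days in 0.1% serum, which makes cells leave the cell cycle, with 3 libraries in each of the 4 groups and ERCC transcripts, which are synthetic RNAs, added to each RNA sample. Libraries 1 to 3 were wild-type at 10% serum, 4 to 6 ΔLEO1 at 10% serum, 7 to 9 wild-type at 0.1% serum and 10 to 12 ΔLEO1 at 0.1% serum. No source used here says if libraries of 1 group came from separate cultures. The p-values therefore measure only how far these libraries spread, which may be technical.

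Most histone mRNAs are made in S phase, when new DNA is packed into nucleosomes of H2A, H2B, H3 and H4. Their genes sit in clusters, lack introns in their classical form and give mRNAs that end just behind a short stem-loop instead of in a poly(A) tail. The stem-loop is bound by SLBP, and the U7 snRNP guides the cleavage of the 3′ end. A selection for poly(A) tails is therefore expected to keep little of this RNA, and what it keeps can come from transcripts that ran past the stem-loop to a poly(A) site. H1-10 is known as a histone gene that is expressed outside S phase with a polyadenylated mRNA.

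The data fitted the name replication-dependent only in part, since the gene with the highest level was H1-10. H1-10 (chromosome 3 from 129314771 to 129316277 on GRCh38) had a mean of 148 CPM, its count scaled to a common total of gene counts, over the 12 libraries, or 98.3 CPM per kb of exon. It lies outside the histone clusters and has no stem-loop in its annotated transcript. H1-10 took 59.6% to 83.7% of the counts of the 71 histone genes in a library. The measurable genes of the clusters took 15.1% to 37.7%, and all histone genes that were not measurable took 1.16% to 4.47%. The part of H1-10 was on average 79.8% and 82.1% in wild-type cells at 10% and 0.1% serum and 71.6% and 60.3% in ΔLEO1 cells.

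A gene was tested when it had more than 1 CPM in 3 or more libraries, which 13236 genes had. Of the 71 histone genes 12 passed, 49 had counts but did not pass and 10 had 0 counts in every library. The 12 were H1-2 and H1-10 of 9 H1 genes, H2AC6, H2AC11 and H2AC25 of 15 H2A genes, H2BC4, H2BC5, H2BC9, H2BC12 and H2BC21 of 19 H2B genes, H3C6 of 13 H3 genes and H4C8 of 15 H4 genes. Their identifiers in the table are, in the same order, ENSG00000187837, ENSG00000184897, ENSG00000180573, ENSG00000196787, ENSG00000181218, ENSG00000180596, ENSG00000158373, ENSG00000275713, ENSG00000197903, ENSG00000184678, ENSG00000274750 and ENSG00000158406. In addition H1-10-AS1 and the pseudogenes H2BC19P and H2BC20P passed. The gene next below was H2BC15 with 0.598 CPM and 1 library above 1 CPM. H4C8 passed only through the 3 ΔLEO1 libraries at 0.1% serum and H2BC9 only through the 3 ΔLEO1 libraries at 10% serum. H2BC4 was above 1 CPM only in ΔLEO1 cells, in 1 library at 10% and 3 at 0.1% serum, and H3C6 only at 0.1% serum, in 3 wild-type and 2 ΔLEO1 libraries. H2AC11 was above it in the 6 ΔLEO1 libraries and in 1 wild-type library. These 5 genes passed through the groups where they are high, so their differences in that direction follow in part from the filter. Counts over the 12 are therefore a description of the measurable genes and not of all members.

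**Figure D1:**
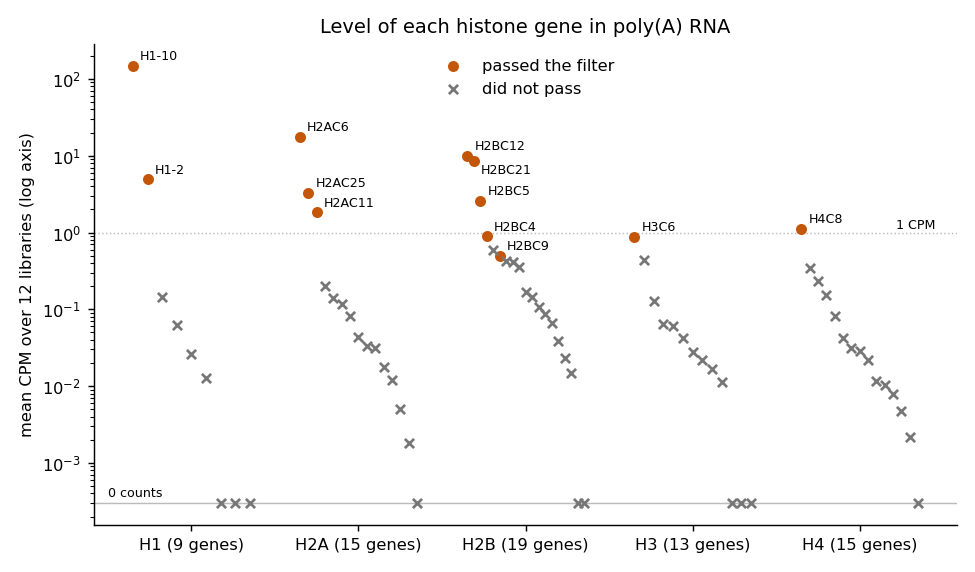
Mean CPM of gene counts over the 12 libraries (log axis) for each of the 71 histone genes, by family, with a point for each gene. The 12 genes that passed the filter are named, from H1-10 at 148 CPM to H2BC9 at 0.500 CPM, and the 10 genes without counts are drawn on the line marked 0 counts.

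The 3′ stem-loop is the sequence that sets this family apart, and the 7 measurable genes that carry it in an annotated transcript are shown here with 5 bases on either side. The capitals mark the stem-loop, searched as GGNNCTTTNNAGNNCC with the first 6 letters pairing with the last 6, and positions are on GRCh38.
H2AC6, chr6:26124664-26124689, plus strand: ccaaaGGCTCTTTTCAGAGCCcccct
H2AC25, chr1:228457364-228457389, minus strand: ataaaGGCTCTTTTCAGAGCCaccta
H2BC21, chr1:149886183-149886208, minus strand: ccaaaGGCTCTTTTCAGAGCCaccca
H2BC9, chr6:26252050-26252075, plus strand: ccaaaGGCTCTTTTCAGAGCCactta
H2BC4, chr6:26123467-26123492, minus strand: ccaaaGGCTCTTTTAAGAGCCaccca
H2BC5, chr6:26158582-26158607, plus strand: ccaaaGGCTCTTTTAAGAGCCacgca
H4C8, chr6:26285126-26285151, minus strand: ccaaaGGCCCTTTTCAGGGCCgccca

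Only the loop and 1 pair of positions of the stem vary among the 7. The same search found a stem-loop in 38 of 19684 genes with a protein-coding transcript, or 0.193%. In 6 of the 7 genes an annotated transcript ran over 100 bases past the stem-loop, by as much as 1128 bases in H2AC6, 1640 in H2BC9, 1655 in H4C8 and 1729 in H2BC21. The transcript of H2BC5 that holds the stem-loop ended 39 bases behind it. Of the 12 measurable genes 10 had AATAAA or ATTAAA, the usual poly(A) signals, in the last 50 bases of a transcript, as had 81.9% of genes with a protein-coding transcript. For H2BC12 and H1-2 the annotated model held the coding sequence alone, which has no 3′ end to search. Among the 57 annotated histone genes that did not pass, 28 had coding-only models, 20 had the stem-loop, 15 of these with a transcript running over 100 bases past it, and 13 had a poly(A) signal. Of the 12 measurable genes 5 had a spliced transcript, against 9 of these 57.

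H2BC12 shared 68.5% of its 58-base stretches, the read length, with other H2B genes, so its counts are uncertain. The other 11 measurable genes shared from 0% to 16.2%, the highest value being that of H1-10, which overlaps H1-10-AS1 by 345 bases on the opposite strand. The strand setting of the counting is not given, so H1-10 and H1-10-AS1 cannot be told apart in that overlap, nor can H2BC19P and H2BC20P, which overlap by 1989 bases.

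RefSeq starts placed H2AC6 and H2BC4 head to head on chromosome 6, and both passed the filter. The stretch between their starts (chr6:26123927-26124171, GRCh38.p14, 245 bases, plus strand) is shown because these neighbours start on either side of it. Capitals mark CCAAT or its reverse, ATTTGCAT or its reverse, and TATAAA.
H2BC4 to H2AC6: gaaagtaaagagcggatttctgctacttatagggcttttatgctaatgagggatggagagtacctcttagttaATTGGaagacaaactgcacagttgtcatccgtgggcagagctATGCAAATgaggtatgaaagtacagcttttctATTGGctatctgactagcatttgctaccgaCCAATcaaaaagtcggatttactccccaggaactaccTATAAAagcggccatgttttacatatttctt

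ATTTGCAT is the octamer, the binding site of POU factors known from H2B promoters. On either strand it was found in 14 of 18 H2B promoters and 11 of 14 H2A promoters, against 1.80% of 27305 RefSeq promoters of the same 300 bases. CCAAT on either strand was in 54 of the 65 histone promoters (35.7% of all promoters) and TATAAA in 41 (12% of all). AAACACA, the H1 box, was in 7 of 9 H1 promoters (5.76% of all). The promoter of H4C8 held none of the 4 motifs. The levels of such neighbours were apart in some pairs, as in H2AC6 with 10.6 CPM per kb and H2BC4 with 1.07 CPM per kb or in H2BC12 with 26.2 CPM per kb and H2AC12 with 0.0464 CPM per kb. They were closer in others, as in H2BC8 with 0.265 CPM per kb and H2AC8 with 0.396 CPM per kb, neither of which passed the filter.

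LEO1 was counted 851, 935 and 915 times in the wild-type libraries at 10% serum and 1001, 799 and 682 times in those at 0.1% serum. In the ΔLEO1 libraries it had 53, 36 and 55 counts at 10% serum and 23, 47 and 49 at 0.1% serum, which gave log2 fold changes of −4.38 (adjusted p = 5.99e-56) and −4.51 (adjusted p = 2.56e-57) on a scale of gene counts. Gene counts ran from 26240632 to 45315560 and ERCC counts from 244023 to 1090393 per library. In each group the highest-numbered library (3, 6, 9 and 12) stood apart, with a chi-square per gene of 66.1 to 144 against the others, which differed from each other by 3.03 to 12.1. The fibroblast markers COL1A1, COL1A2, VIM and FN1 were all at 6096 CPM or more in every library, while the epithelial markers EPCAM, CDH1 and KRT14 and the endothelial markers CDH5, PECAM1 and VWF had at most 1.42 CPM. KRT18, the remaining gene of the epithelial list, had 96.0 to 1113 CPM.

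The first comparison asked whether histone RNA takes a larger part of poly(A) RNA in low serum. In wild-type cells the 71 histone genes took 0.0150%, 0.0151% and 0.0115% of the gene counts at 10% serum, and 0.0198%, 0.0220% and 0.0276% at 0.1% serum. In ΔLEO1 cells they took 0.0179%, 0.0193% and 0.0141% at 10% serum, and 0.0276%, 0.0274% and 0.0294% at 0.1% serum. The share was higher in low serum in both genotypes without overlap, while the genotypes overlapped in both sera. Group means were 0.0138% ± 0.00206 and 0.0231% ± 0.00402 in wild-type cells and 0.0171% ± 0.00269 and 0.0281% ± 0.00108 in ΔLEO1 cells, at 10% and 0.1% serum (SD, n = 3 each). Both serum comparisons had an exact two-sided permutation p of 0.1, the smallest that 3 libraries against 3 allow, with ratios of 1.67 and 1.65. Libraries 3 and 6, which stood apart, had the lowest share of their groups and libraries 9 and 12 the highest. This widened both serum differences. The ratio of ΔLEO1 to wild-type was 1.23 at 10% serum and 1.22 at 0.1% serum (exact permutation p = 0.3 each). The widest 95% Wilson interval of a share spanned 0.00114 percentage points and covers counting error only.

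Without the 5 genes outside the clusters, H1-10 among them, the share was higher without overlap in low serum and also in ΔLEO1 cells. The 66 cluster genes took 0.00276% ± 0.000304 and 0.00408% ± 0.000542 of the counts in wild-type cells at 10% and 0.1% serum (SD, n = 3 each), a ratio of 1.48. In ΔLEO1 cells they took 0.00485% ± 0.000984 and 0.0111% ± 0.000160 (SD, n = 3 each), a ratio of 2.30. Between genotypes the ratios were 1.76 at 10% serum and 2.73 at 0.1% serum. The permutation p was 0.1 for each of the 4 comparisons, exact and two-sided. In wild-type cells the cluster sum went from 27.6 to 40.8 CPM in low serum. H2AC6 went from 6.38 to 13.6 CPM there and H2BC12 from 5.41 to 8.51 CPM. In ΔLEO1 cells the sum went from 48.5 to 111 CPM and H2AC6 from 9.64 to 41.3 CPM. Per ERCC count, in contrast, the sum of the 71 genes overlapped between sera, with a ratio of 0.770 in wild-type cells (exact permutation p = 0.4) and 0.753 in ΔLEO1 cells (exact permutation p = 0.4). The cluster genes alone had ratios of 0.695 (exact permutation p = 0.2) and 1.05 (exact permutation p = 1.0).

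**Figure D2:**
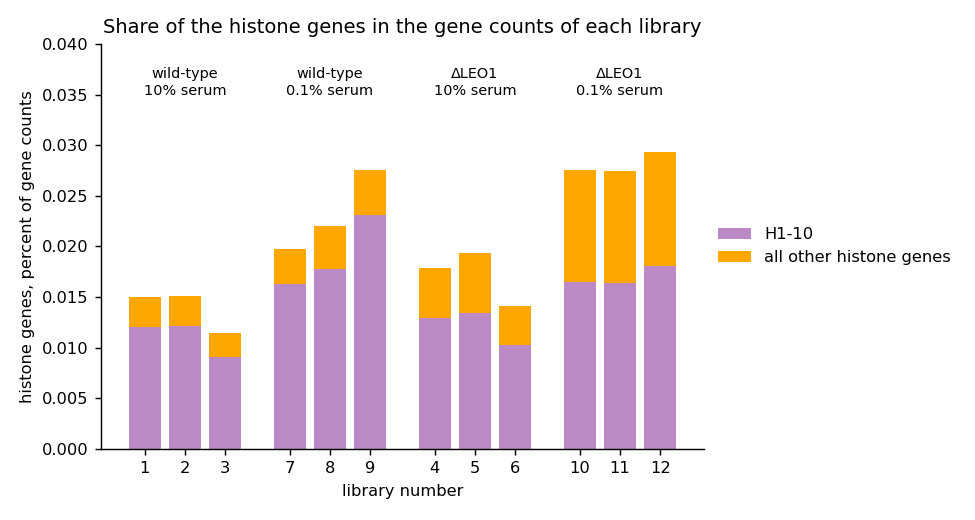
Percent of the gene counts of each library that fell on the 71 histone genes, as bars from 0, split into H1-10 and all other histone genes, with libraries ordered by group. The share lies between 0.0115% and 0.0151% in wild-type cells at 10% serum and between 0.0274% and 0.0294% in ΔLEO1 cells at 0.1% serum, and H1-10 makes up most of every bar.

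Genes were then tested singly on 2 scales with edgeR's two-sided likelihood ratio test over all 13236 genes, and a gene was called where the p adjusted by Benjamini-Hochberg was under 0.05. All fold changes are on the log2 scale. The gene scale divides by the gene counts (TMM on the genes) and shows a change relative to the other genes, given per library as gene-scaled CPM. The ERCC scale divides by the ERCC counts (TMM on the ERCC transcripts), given as ERCC-scaled counts. The scales part in the serum comparisons, where the median of all genes was −0.97 in wild-type and −1.05 in ΔLEO1 cells on the ERCC scale and 0.00 and 0.01 on the gene scale (log2). In bulk RNA fewer cells and less RNA per cell cannot be told apart.

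In wild-type cells 5 of the 12 histone genes rose at 0.1% serum on the gene scale and none fell, where 16.0% of all tested genes were called higher and 16.6% lower. They were H2AC6, H1-10, H2BC5, H3C6 and H2BC12. In ΔLEO1 cells 8 rose and 1 fell, where 16.5% of all genes were called higher and 12.9% lower. These 8 were the same 5 together with H2BC21, H4C8 and H2AC11, and H2BC9 fell. H3C6 and H4C8 had passed the filter only at 0.1% serum and H2BC9 only at 10% serum, so these calls follow in part from it. The median log2 fold change of the 12 genes was 0.28 in wild-type and 0.81 in ΔLEO1 cells. H1-2, H2AC25 and H2BC4 were called in neither genotype. The libraries of the 2 sera did not overlap for 5 genes that were higher and 1 that was lower in wild-type cells (24.7% and 23.7% of all genes) and for 9 and 1 in ΔLEO1 cells (22.2% and 21.0% of all genes). Without the highest-numbered library of each group 5 genes rose in wild-type and 8 in ΔLEO1 cells, and none fell, while H2BC9 and H4C8 no longer passed the filter. In that fit 28.0% and 29.2% of all genes were called higher and 30.8% and 28.4% lower. Summed by family over the clusters, the share at 0.1% serum was 1.88 times that at 10% serum for H2A, 1.32 times for H2B and 1.62 times for H3 in wild-type cells and 2.95, 2.14 and 1.59 times in ΔLEO1 cells, each without overlap (exact permutation p = 0.1). The H4 genes had ratios of 1.24 (exact permutation p = 0.5) and 2.75 (exact permutation p = 0.1), and the H1 genes of the cluster 0.987 (exact permutation p = 1.0) and 1.26 (exact permutation p = 0.3). Single genes held much of these sums. In ΔLEO1 cells at 0.1% serum H2AC6 held 41.3 of 51.5 CPM for H2A and H2BC12 19.1 of 44.1 for H2B. H3C6 held 1.27 of 2.60 CPM for H3, H4C8 2.93 of 3.87 for H4 and H1-2 9.01 of 9.21 for H1.

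Linker histones bind the DNA between nucleosomes. The linker histone gene H1-10, also called H1X, had 123, 125 and 93.5 gene-scaled CPM in wild-type cells at 10% serum and 158, 171 and 226 at 0.1% serum. The ΔLEO1 libraries had 133, 136 and 106 at 10% serum and 168, 162 and 169 at 0.1% serum. No group overlapped with that of the other serum. Its changes were 0.70 (adjusted p = 0.000276) and 0.41 (adjusted p = 0.0468), and the call in ΔLEO1 cells was lost in 9 of the 12 fits that each left out 1 library, with an adjusted p of up to 0.211. H1-10-AS1, on the other strand, had 6.66, 7.06 and 5.65 gene-scaled CPM in wild-type cells at 10% serum and 9.84, 11.5 and 12.2 at 0.1% serum, and in ΔLEO1 cells 7.52, 7.49 and 5.86 against 8.70, 9.06 and 8.76. The sera did not overlap in either genotype, with a change of 0.79 in wild-type cells (adjusted p = 2.36e-05) and 0.35 in ΔLEO1 cells (adjusted p = 0.100). H1-2 (chromosome 6 from 26055787 to 26056428) is a linker histone of the cluster. Its levels were 1.66, 2.02 and 2.22 gene-scaled CPM in wild-type cells at 10% serum and 1.24, 2.20 and 2.13 at 0.1% serum. In ΔLEO1 cells they were 7.65, 9.14 and 4.71 at 10% serum and 9.55, 9.0 and 8.04 at 0.1% serum. The serum groups of wild-type cells overlapped, and the changes were −0.09 (adjusted p = 0.848) and 0.31 (adjusted p = 0.407).

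H2AC6 (chromosome 6 from 26124145 to 26139116), which encodes a core histone of the H2A family, had the smallest p of the members in low serum in both genotypes. It had 7.22, 7.17 and 5.31 gene-scaled CPM in wild-type cells at 10% serum and 11.3, 12.2 and 16.2 at 0.1% serum. The ΔLEO1 libraries had 10.2, 11.8 and 7.59 at 10% serum and 40.0, 39.7 and 41.8 at 0.1% serum. Every library at 0.1% serum was above all libraries of its genotype at 10% serum. It rose by 1.01 (SE 0.20, adjusted p = 8.37e-06) in wild-type cells and 2.04 (SE 0.20, adjusted p = 9.99e-22) in ΔLEO1 cells, a 4.11-fold rise. For H2AC25 of the cluster at 1q42 (chromosome 1 from 228456979 to 228457873) the levels were 1.49, 1.50 and 1.27 in wild-type cells at 10% serum and 1.33, 1.54 and 1.90 at 0.1% serum. In ΔLEO1 cells it had 4.93, 6.37 and 2.94, and 6.11, 4.91 and 5.17 gene-scaled CPM. The serum groups overlapped in both genotypes (adjusted p = 0.713 and 0.648). H2AC11 (chromosome 6 from 27133042 to 27135291) had 0.703, 0.657 and 0.291 gene-scaled CPM in wild-type cells at 10% serum and 0.635, 0.514 and 0.993 at 0.1% serum, which overlapped. In ΔLEO1 cells it had 2.27, 2.57 and 1.82 at 10% serum and 3.56, 3.88 and 3.94 at 0.1% serum, without overlap and with a change of 0.77 (adjusted p = 0.0107). This call was lost without library 4, 6 or 11, with an adjusted p of up to 0.0664, and the wild-type change was 0.39 (adjusted p = 0.384).

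Of the H2B genes, whose products pair with H2A in the nucleosome, H2BC12 and H2BC5 rose in both genotypes. H2BC12 (chromosome 6 from 27146418 to 27146798) had 5.96, 5.51 and 5.23 gene-scaled CPM in wild-type cells at 10% serum and 6.75, 9.28 and 8.74 at 0.1% serum. In ΔLEO1 cells it went from 7.62, 7.24 and 6.16 to 22.1, 19.7 and 14.9. Its changes were 0.57 (SE 0.20, adjusted p = 0.0162) and 1.43 (SE 0.19, adjusted p = 7.42e-12), and the wild-type call was lost without library 2, 3, 8 or 9, with an adjusted p of up to 0.105. H2BC5 (chromosome 6 from 26158146 to 26171349) had 1.15, 1.29 and 1.00 gene-scaled CPM in wild-type cells at 10% serum, 1.44, 2.57 and 3.01 at 0.1% serum, and in ΔLEO1 cells 1.53, 1.97 and 1.52 against 5.85, 4.27 and 5.27. Low serum was the higher in every library of both genotypes, with changes of 1.02 (SE 0.29, adjusted p = 0.00213) and 1.61 (SE 0.26, adjusted p = 4.39e-08). H2BC21 (chromosome 1 from 149884459 to 149886652) had wild-type levels of 6.89, 6.12 and 6.82 at 10% serum and 6.78, 8.18 and 5.81 at 0.1% serum, which overlapped (adjusted p = 0.814). In ΔLEO1 cells its levels were 5.96, 7.67 and 7.84 against 12.5, 13.5 and 12.9, a change of 0.85 (SE 0.17, adjusted p = 8.23e-06). H2BC4 (chromosome 6 from 26114873 to 26123926), the neighbour of H2AC6, had a change of 0.06 in wild-type (adjusted p = 0.927) and 0.74 in ΔLEO1 cells (adjusted p = 0.0604).

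H2BC9 (chromosome 6 from 26251651 to 26253710) was the gene that fell. It had 1.27, 1.36 and 1.05 gene-scaled CPM in ΔLEO1 cells at 10% serum and 0.705, 0.455 and 0.346 at 0.1% serum, a change of −1.29 (SE 0.32, adjusted p = 0.000318). In wild-type cells it had 0.253, 0.210 and 0.159, and 0.144, 0.0734 and 0.0584, which rest on 2 to 9 counts per library. The groups did not overlap there, and the change of −1.11 missed the threshold (adjusted p = 0.121).

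The single H3 gene, H3C6 (chromosome 6 from 26224199 to 26227473), had 0.618, 0.604 and 0.555 gene-scaled CPM in wild-type cells at 10% serum and 1.15, 1.32 and 1.02 at 0.1% serum. In ΔLEO1 cells its levels were 0.475, 0.469 and 0.537 against 0.941, 1.06 and 1.70. It rose by 0.97 (SE 0.30, adjusted p = 0.00608) and 1.33 (SE 0.30, adjusted p = 8.98e-05), without overlap between the sera, but it had passed the filter only through libraries at 0.1% serum. The single H4 gene, H4C8 (chromosome 6 from 26277609 to 26285638), had 0.422, 0.499 and 0.264 in wild-type cells at 10% serum and 0.202, 0.477 and 0.526 at 0.1% serum, a difference of 0.01 (SE 0.40, adjusted p = 0.990). The ΔLEO1 libraries had 0.818, 0.961 and 0.513 at 10% serum and 3.06, 2.91 and 2.69 at 0.1% serum, a 3.76-fold rise (log2 fold change 1.91, SE 0.29, adjusted p = 1.44e-09). H4C8 had passed the filter only through the ΔLEO1 libraries at 0.1% serum. The pseudogene H2BC20P had 2.81, 2.49 and 1.93, and 2.05, 2.09 and 2.16 gene-scaled CPM in wild-type cells, and 3.22, 3.06 and 3.13, and 2.23, 2.67 and 4.61 in ΔLEO1 cells. It was called in neither genotype (adjusted p = 0.615 and 0.966), and neither was H2BC19P (adjusted p = 0.204 and 0.709).

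**Figure D3:**
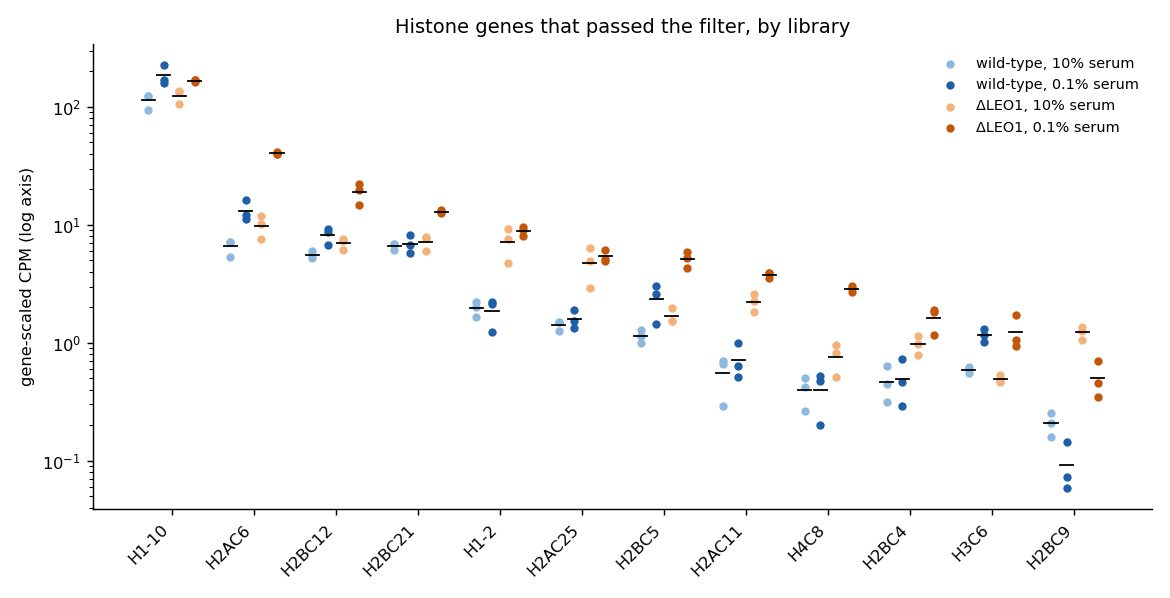
Gene-scaled CPM (log axis) of the 12 histone genes that passed the filter, with a point for each library and a bar at the mean of the 3 libraries of a group. H2AC6, H2BC12, H2BC21, H2BC5, H2AC11 and H4C8 are highest in all 3 ΔLEO1 libraries at 0.1% serum, and H2BC9 is highest in those at 10% serum.

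On the ERCC scale none of the 12 genes was called higher in low serum in either genotype, where 0.944% of all genes were called higher in wild-type and 0.975% in ΔLEO1 cells. At an unadjusted p under 0.05 edgeR's test had 0 genes higher in wild-type cells and 1 in ΔLEO1 cells, and the quasi-likelihood test and DESeq2 also called 0. H2BC9 was the 1 gene called lower in each genotype, where 36.1% and 47.2% of all genes were. Its ERCC-scaled counts went from 21.1 ± 10.2 to 4.59 ± 2.36 in wild-type cells and from 153 ± 44.6 to 27.9 ± 12.3 in ΔLEO1 cells (SD, n = 3 each), changes of −2.12 (adjusted p = 0.0206) and −2.48 (adjusted p = 0.000626). The wild-type call was lost without library 1, 2, 7 or 9, with an adjusted p of up to 0.146, and rests on 2 to 9 counts per library. H2BC9 had passed the filter only through the ΔLEO1 libraries at 10% serum, so its lower call in ΔLEO1 cells follows in part from the filter. H2AC6 had 888, 732 and 356 against 545, 766 and 616 in wild-type cells (−0.03, adjusted p = 0.948). In ΔLEO1 cells H2AC6 had 1570, 1360 and 771 against 2063, 1205 and 4035 (0.98, SE 0.47, adjusted p = 0.0692). The medians of the 12 genes were −0.79 in wild-type and −0.24 in ΔLEO1 cells, beside −0.97 and −1.05 for all genes. On this scale no gene was higher and 2 were lower without overlap in wild-type cells (1.16% and 53.4% of all genes), and 0 and 1 in ΔLEO1 cells (0.846% and 50.9%). Without the highest-numbered library of each group 4 and 5 genes were called lower and still none higher, where 72.4% and 93.1% of all genes were called lower. The pseudogene H2BC19P was called lower in wild-type cells (−1.50, adjusted p = 0.0240).

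**Figure D4:**
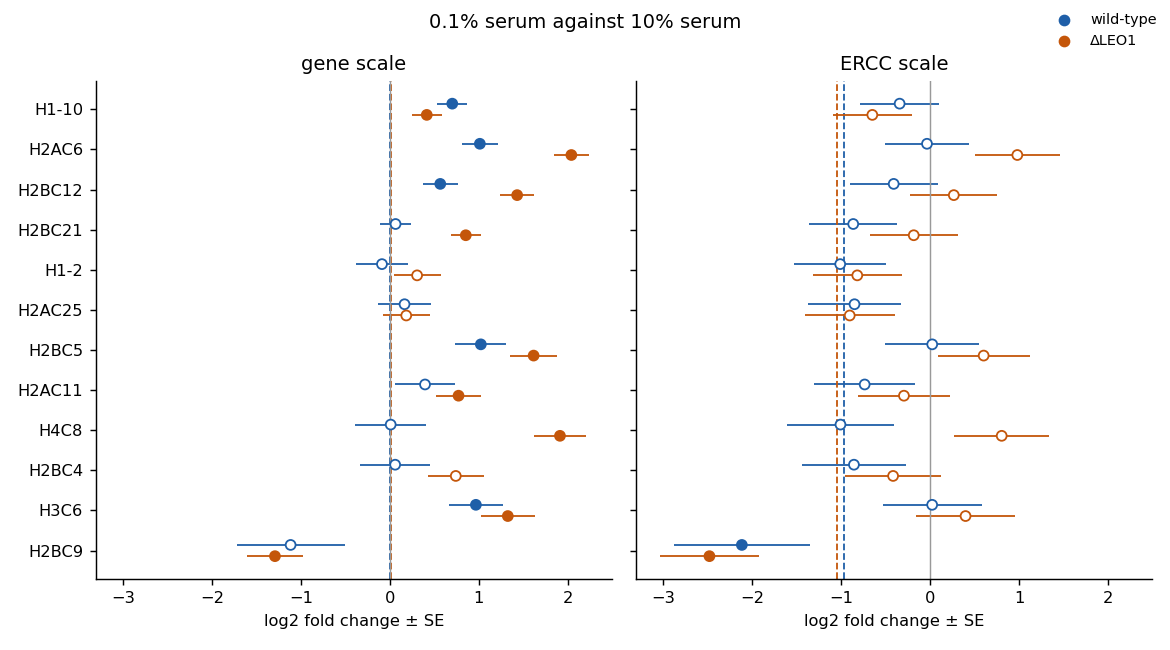
Log2 fold changes of 0.1% against 10% serum with their SE for the 12 histone genes, in wild-type and ΔLEO1 cells, on the gene scale (left) and the ERCC scale (right). Filled points are called, open points are not, and dashed lines mark the median of all genes, which lies near 0 on the left and at −0.97 and −1.05 on the right, so that most histone genes lie above it on both scales.

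The second comparison set ΔLEO1 against wild-type cells. The serum and genotype comparisons share libraries, and the ΔLEO1 libraries represent 1 clone. On the gene scale 7 of the 12 genes were higher in ΔLEO1 cells at 10% serum and 10 at 0.1% serum, and none was lower, where 17.7% and 15.4% of all genes were called higher and 21.8% and 17.6% lower. At an unadjusted p under 0.05 edgeR's test also had 0 lower in either serum, and so did the quasi-likelihood test and DESeq2. The 10 lacked H1-10 and H3C6, and the 7 were H1-2, H2AC6, H2AC11, H2AC25, H2BC4, H2BC9 and H4C8. Both sets held H2BC4, H2BC9 and H4C8, which had passed the filter only through ΔLEO1 libraries, and H2AC11, which passed mainly through them. Their higher calls therefore follow in part from the filter. Medians of the 12 log2 fold changes were 0.77 and 1.68, beside 0.00 and 0.02 for all genes. The genotypes did not overlap for 9 genes that were higher and 1 that was lower, H3C6, at 10% serum (29.2% and 30.1% of all genes) and for 10 and 0 at 0.1% serum (20.5% and 21.7%). Without the highest-numbered library of each group 6 and 8 genes were called higher, where 31.0% and 31.1% of all genes were.

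On the ERCC scale 4 genes were called higher at 10% serum (4.20% of all genes) and 7 at 0.1% serum (3.85% of all genes). None was called lower at 10% serum (4.64% of all genes) or at 0.1% serum (3.59%), none had an unadjusted p under 0.05 in that direction by edgeR, and the quasi-likelihood test and DESeq2 called 0 as well. The genotypes did not overlap for 7 genes that were higher and 0 that were lower at 10% serum (23.7% and 6.94% of all genes) and for 8 and 0 at 0.1% serum (4.64% and 4.83%). H1-2, H2AC11, H2AC25 and H2BC9 were called in both sera and H2AC6, H2BC4 and H4C8 at 0.1% serum. Of these H2AC11, H2BC4, H2BC9 and H4C8 had passed the filter mainly or only through ΔLEO1 libraries. The medians were 1.09 and 1.86, beside 0.35 and 0.27 for all genes. The genes described next had large differences between the genotypes and low levels in wild-type cells. For H2AC11 and H2BC9 the low wild-type levels follow in part from the filter. H1-2 had changes of 1.86 (SE 0.28, adjusted p = 4.85e-10) and 2.26 (SE 0.28, adjusted p = 1.09e-13) on the gene scale, and 2.28 and 2.47 on the ERCC scale. H2AC11 rose from 0.550 ± 0.226 in wild-type to 2.22 ± 0.377 gene-scaled CPM in ΔLEO1 cells at 10% serum and from 0.714 ± 0.249 to 3.79 ± 0.207 at 0.1% serum (SD, n = 3 each), by 2.01 and 2.39. H2AC25 differed by 1.74 at 10% serum and 1.76 at 0.1% serum, with no overlap between the genotypes on either scale. H2BC9 differed by 2.55 (adjusted p = 1.22e-11) and 2.38 (adjusted p = 1.39e-05).

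The sizes of the genotype difference at 10% and at 0.1% serum are given side by side, and whether they differ is tested as the interaction. H4C8 was 0.95 higher in ΔLEO1 cells at 10% serum (SE 0.35, adjusted p = 0.0189) and 2.85 higher at 0.1% serum (SE 0.34, adjusted p = 9.74e-17) on the gene scale. For H2AC6 the values were 0.59 (adjusted p = 0.0120) and 1.61 (adjusted p = 1.68e-14), and for its neighbour H2BC4 1.06 (adjusted p = 0.00917) and 1.74 (adjusted p = 7.61e-06). H4C8 had passed the filter only through the ΔLEO1 libraries at 0.1% serum, and H2BC4 only through ΔLEO1 libraries. The differences of both genes therefore follow in part from the filter. H2BC12 had 0.33 (adjusted p = 0.172) and 1.20 (adjusted p = 8.94e-09), H2BC21 0.12 (adjusted p = 0.621) and 0.91 (adjusted p = 1.61e-06), and H2BC5 0.54 (adjusted p = 0.120) and 1.14 (adjusted p = 0.000139). H1-10 had 0.14 and −0.15 and H3C6 −0.26 and 0.10, with adjusted p values of 0.551, 0.531, 0.552 and 0.820. In 10% serum the gene-scale calls of H2AC6 and H2BC4 were lost without library 3 or 5 and that of H4C8 without library 3, 4 or 5. On the ERCC scale H2AC25 lost its call at 0.1% serum without library 7, H2BC4 without library 7, 9 or 10, and H2BC9 at 0.1% serum without library 9 or 10.

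The 59 histone genes that did not pass were summed. Their sum was 3.13 ± 1.25 CPM in wild-type and 6.49 ± 2.17 CPM in ΔLEO1 cells at 10% serum, and 2.89 ± 0.501 and 8.08 ± 1.09 CPM at 0.1% serum (SD, n = 3 each). The ratio of ΔLEO1 to wild-type was 2.08 at 10% serum and 2.80 at 0.1% serum, without overlap (exact two-sided permutation p = 0.1 each, the smallest possible). Between sera their share overlapped in both genotypes, with ratios of 0.924 in wild-type cells (exact permutation p = 0.8) and 1.25 in ΔLEO1 cells (exact permutation p = 0.4). With the filter of edgeR's filterByExpr 22 histone genes were tested on the gene scale. Among those that had not passed before, 5 were called higher in ΔLEO1 cells at 10% serum (17.0% of all genes) and 8 at 0.1% serum (15.8% of all genes). None of them was called lower at 10% serum (20.9% of all genes) or at 0.1% serum (16.3% of all genes).

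By cluster, the 2 genes at 1q42 had a share 3.65 times higher in ΔLEO1 than in wild-type cells at 10% serum and 3.45 times higher at 0.1% serum, both without overlap. The 55 genes at 6p22 had ratios of 1.84 and 2.90, also without overlap. The 9 genes analysed at 1q21, where H2AC18 and H2AC19 were not analysed here, had 1.13 with overlap and 1.84 without. Each comparison without overlap had an exact permutation p of 0.1. Single genes held much of these sums. In ΔLEO1 cells at 0.1% serum H2AC25 held 5.49 of the 5.71 CPM at 1q42 and H2BC21 13.2 of the 13.8 CPM at 1q21. At 6p22 H2AC6 held 41.3 of 91.7 CPM.

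**Figure D5:**
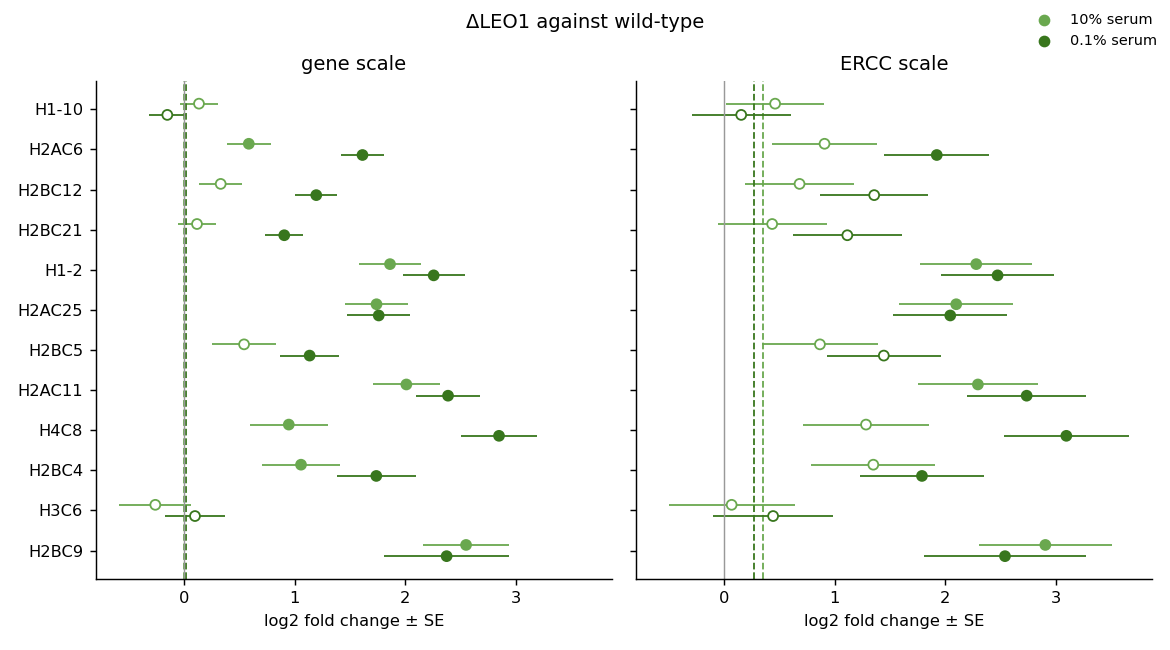
Log2 fold changes of ΔLEO1 against wild-type cells with their SE for the 12 histone genes, at 10% and 0.1% serum, on the gene scale (left) and the ERCC scale (right). Filled points are called, open points are not, and dashed lines mark the median of all genes; 10 genes are called higher at 0.1% serum on the gene scale and 7 on the ERCC scale.

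Whether the serum response differed between the genotypes was tested as the interaction. On the gene scale 4 of the 12 genes were called, where 3.06% of all genes were called in the higher direction and 1.02% in the lower. Among them H4C8 had passed the filter only through the ΔLEO1 libraries at 0.1% serum, so its call follows in part from the filter. The difference of the log2 fold changes was 1.90 for H4C8 (SE 0.49, adjusted p = 0.00519), 1.03 for H2AC6 (SE 0.28, adjusted p = 0.0105), 0.79 for H2BC21 (SE 0.24, adjusted p = 0.0339) and 0.86 for H2BC12 (SE 0.27, adjusted p = 0.0425), each with the larger rise in ΔLEO1 cells. The quasi-likelihood test called none of them, with adjusted p values of 0.0877, 0.0723, 0.0916 and 0.101 in the same order. DESeq2 called all 4 on the gene scale, with adjusted p values of 0.018, 0.0074, 0.019 and 0.027 in that order. With 1 library left out at a time, the call of H4C8 was lost without library 2 in the 9 fits that tested it (adjusted p = 0.0672), that of H2AC6 without library 1, 2, 7 or 8 (adjusted p up to 0.0626), and those of H2BC21 and H2BC12 in 9 of 12 fits each (adjusted p up to 0.157 and 0.170). On the ERCC scale edgeR called 0 genes (0.136% of all genes higher and 0.0831% lower), with 1 at an unadjusted p under 0.05, and the quasi-likelihood test and DESeq2 called 0 as well.

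Genes around histone supply were taken from lists by function. Of 37 S phase genes tested, 10 fell in wild-type and 6 in ΔLEO1 cells at 0.1% serum on the gene scale and none rose, where 16.6% and 12.9% of all genes fell. On the ERCC scale 36 and 35 fell, where 36.1% and 47.2% of all genes fell. The 4 most abundant were RRM2 and RRM1 (ribonucleotide reductase) and MCM7 and MCM4 (replicative helicase). Their wild-type changes on the gene scale were −0.67 (adjusted p = 0.273), −0.62 (adjusted p = 0.0461), −0.24 (adjusted p = 0.537) and −0.26 (adjusted p = 0.566). The summed S phase CPM overlapped between sera. In both genotypes the highest-numbered library was the lowest of its group at 10% serum and the highest at 0.1% serum. It was 1334, 1339 and 593 in wild-type cells at 10% serum against 723, 707 and 1021 at 0.1% serum. In ΔLEO1 cells the sums were 1391, 1532 and 851 against 939.9, 919.6 and 1067. Between genotypes 2 S phase genes were higher in each serum (PRIM2 and RFC5 in 10%, PRIM2 and CDC6 in 0.1%), and CDK2 and POLA2 were lower at 10% serum, on the gene scale. Of all genes 17.7% and 15.4% were higher at 10% and 0.1% serum, and 21.8% were lower at 10% serum.

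Of the 20 genes of histone 3′ end processing, ZNF473 rose and NCBP1 fell in wild-type cells and CASP8AP2 fell in ΔLEO1 cells at 0.1% serum on the gene scale, while 6 and 12 fell on the ERCC scale, beside 36.1% and 47.2% of all genes. On the gene scale 16.0% and 16.5% of all genes rose and 16.6% and 12.9% fell. The most abundant were UPF1, SYMPK, CPSF2 and SRRT, with wild-type changes of 0.32, 0.00, −0.07 and 0.12 on the gene scale, none of them called. SLBP, which binds the stem-loop, was not called in low serum on the gene scale (−0.07 and −0.29, adjusted p = 0.793 and 0.209). On that scale it was higher in ΔLEO1 cells by 0.65 at 10% serum (adjusted p = 0.000731) and 0.44 at 0.1% serum (adjusted p = 0.0362). On the ERCC scale SLBP was called lower in low serum in ΔLEO1 cells but not in wild-type cells. SLBP is named for its role although the rule for named genes did not pick it. NCBP1 was also higher in ΔLEO1 cells in both sera, and ZNF473 at 10% serum.

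Of the 24 histone chaperones, which carry histones to and from DNA, 2 rose (ASF1A and NAP1L1) and 1 fell (HJURP) in wild-type cells and 1 rose (NAP1L1) and 1 fell (HJURP) in ΔLEO1 cells at 0.1% serum on the gene scale. Of all genes 16.0% and 16.5% rose and 16.6% and 12.9% fell in wild-type and ΔLEO1 cells. NAP1L1, the most abundant, changed by 0.39 (adjusted p = 0.0336) and 0.47 (adjusted p = 0.0110). SUPT6H, SUPT16H and SSRP1 had log2 fold changes of −0.00, 0.05 and 0.10 in wild-type cells and were not called. Per ERCC count 9 and 17 chaperones fell and none rose, beside 36.1% and 47.2% of all genes that fell. Between genotypes NAP1L1 was higher in both sera, NASP was higher at 10% serum and ASF1A lower at 0.1% serum.

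Replacement histones, which are made outside S phase, were tested for 8 of 12 listed genes. H3-3B rose in both genotypes (0.66, adjusted p = 2.51e-05, and 0.42, adjusted p = 0.0127), MACROH2A1 rose in wild-type cells (0.42, adjusted p = 0.00353) and H2AJ fell in both on the gene scale. On that scale 16.0% and 16.5% of all genes rose and 16.6% and 12.9% fell. H2AZ2 and H2AZ1 had log2 fold changes of −0.02 and −0.32 in wild-type cells and were not called. Per ERCC count 5 fell in wild-type and 6 in ΔLEO1 cells and none rose, again beside 36.1% and 47.2% of all genes that fell.

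RNAs known to lack a poly(A) tail were used to see how far such RNA entered the libraries. Of 17 listed, 7 had 0 counts in every library, and RN7SL1 alone passed the filter. RN7SL1 had a mean of 8.14 CPM, SNORD3A 0.230, RNU4-2 0.142 and RNY1 0.132. RN7SL1 did not pass the threshold on the gene scale, with changes of −0.26 in wild-type (adjusted p = 0.463) and −0.27 in ΔLEO1 cells (adjusted p = 0.450) in low serum and 0.06 and 0.04 between genotypes. The sum of the 17 had a share of 9.0 ± 1.90, 8.32 ± 2.78, 9.60 ± 1.81 and 8.56 ± 0.619 CPM in wild-type cells at 10% and 0.1% serum and ΔLEO1 cells at 10% and 0.1% serum (SD, n = 3 each). These groups overlapped in all 4 comparisons.

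Among markers of other cell types KRT18 and PTPRC were called higher in ΔLEO1 cells in both sera on the gene scale. CD68 was called lower at 0.1% serum. The epithelial list, of which KRT18 alone was tested, summed to 264 to 399 CPM in wild-type and 818 to 1114 CPM in ΔLEO1 cells at 10% serum and to 96.3 to 101 and 469 to 559 CPM at 0.1% serum. Of the 2 blood markers PTPRC was higher in ΔLEO1 cells by 3.87 and 3.91 on the gene scale, and CD68 had −0.24 and −0.92 (adjusted p = 0.608 and 0.0289). Their sum was 0.823 to 1.43 and 1.40 to 1.91 CPM in wild-type and 1.80 to 6.93 and 6.12 to 7.85 CPM in ΔLEO1 cells at 10% and 0.1% serum. Their part in the histone results was not tested.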

How the data were processed

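The authors deposited raw read counts per gene and, separately, counts per ERCC transcript for 12 poly(A) libraries, without normalization. Per the submitters' processing notes, reads were demultiplexed with bcl2fastq 2.20.0.422, aligned with STAR 2.7.10a to GRCh38 together with the ERCC sequences, and counted in exons with featureCounts 1.5.1. The methods name an earlier release of STAR. The annotation release, the strand setting and the treatment of reads with several positions are not given in the sources used here, and counts of genes with near-identical copies depend on them. Groups came from the sample labels. The members, gene lists and tests were chosen with earlier results of these data known.

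Genes with over 1 CPM in 3 libraries were tested in edgeR 4.0.16 (R 4.3.3) with a negative binomial likelihood ratio test over all 4 groups, two-sided, with Benjamini-Hochberg adjustment over all 13236 genes. Library sizes were the gene counts with TMM factors (gene scale) or the ERCC counts with TMM factors (ERCC scale). SE values are Wald errors of the fit. Summed shares were compared with exact permutation tests in scipy 1.17.1. The quasi-likelihood test, DESeq2 1.42.0, other scalings and filters, and libraries left out were alternatives. The scripts were tested on simulated data. Every analysed histone gene that passed the filter was named. Values per library were given for the 10 members with the highest mean CPM and for the 6 called members with the smallest p in each direction of each serum comparison on the gene scale, and listed genes were named as the 4 with the highest mean CPM. Other listed genes are named where 3 or fewer were called, which was chosen after their values were seen.

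Gene positions and transcripts came from the GENCODE annotation of GRCh38, and promoters from RefSeq (GRCh38.p14). A promoter was found for 65 members. The symbols matched 93 genes of the name table, of which 91 were analysed. H2AC18 and H2AC19 were not analysed here, and 1 more gene with a matching symbol is not reported here.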

Additional observations from a re-analysis of the deposited data

Results flagged for a closer look

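The response to low serum differed between the genotypes on the gene scale for 4 histone genes, by edgeR's test of the interaction. The log2 change at 0.1% serum was larger in ΔLEO1 than in wild-type cells by 1.90 for H4C8, 1.03 for H2AC6, 0.86 for H2BC12 and 0.79 for H2BC21. In wild-type cells the change itself was 0.01 for H4C8, 1.01 for H2AC6, 0.57 for H2BC12 and 0.06 for H2BC21. Reads of H2BC12 can belong to other H2B genes, and H4C8 entered the test through the ΔLEO1 libraries at 0.1% serum. On the gene scale the quasi-likelihood test called none of the 4 interactions and DESeq2 called all 4. On the ERCC scale none was called. The calls of H2BC12 and H2BC21 were lost in 9 of 12 fits that each left out 1 library.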

How the results depend on the processing

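Over the 12 histone genes, 2290 fitted values under the alternatives were compared, of which 2111 kept their direction and their side of the threshold, 78 lost the call and 29 gained it. The other 72 changed sign, and 0 of these were called with or without the change of setting. Among the log2 changes given in the text, H4C8 in wild-type cells between sera was −0.011 without a filter and −0.022 with filterByExpr on the gene scale. Without the highest-numbered library of each group H2AC25 was −0.066 in wild-type and −0.040 in ΔLEO1 cells and H2AC11 −0.22 in wild-type cells between sera, while H1-10 was 0.0044 and H3C6 −0.30 between genotypes at 0.1% serum, all on the gene scale. H2AC6 on the ERCC scale was 0.10 in wild-type cells between sera with the lowest-numbered libraries added up. The cause of the shifts in counts was not tested, except that the filters change how many histone genes are tested, 61 without a filter and 22 with filterByExpr. Per ERCC count instead of gene counts, the difference of the summed histone share turned to −0.328 (exact permutation p = 0.4) in wild-type and −0.541 (exact permutation p = 0.4) in ΔLEO1 cells between sera. Without a filter the calls on the gene scale were 16 higher between genotypes at 10% serum, 20 at 0.1% serum and 2 for the interaction, and on the ERCC scale 10 and 14 higher between genotypes and 4 (wild-type) and 6 (ΔLEO1) lower in low serum. Of all genes 8.1%, 7.35% and 1.03% were called higher in these gene-scale comparisons. On the ERCC scale 3.45% and 2.67% of all genes were higher between genotypes and 10.5% and 13.3% lower in low serum. With filterByExpr the gene-scale calls between genotypes were 12 and 18, and the ERCC-scale calls 9 and 14, with 2 lower in low serum in each genotype. Of all genes 17% and 15.8% were higher between genotypes on the gene scale and 5.53% and 5.03% on the ERCC scale. In low serum 31.2% (wild-type) and 41% (ΔLEO1) were lower on the ERCC scale. The quasi-likelihood test called 0 interactions. With the highest-numbered libraries set against the others as a batch term, an alternative chosen after seeing the data, the counts kept within 1.5 times, with 9 genes higher in low serum in ΔLEO1 cells and 4 interactions on the gene scale. Of all genes 18.3% and 4.73% were called higher there. Without the highest-numbered library of each group, 4 (wild-type) and 5 (ΔLEO1) genes were lower in low serum on the ERCC scale and 0 were lower in ΔLEO1 cells on the gene scale. Of all genes 72.4%, 93.1% and 28.4% were lower in these comparisons. With 2 libraries per group, the lowest-numbered ones, added up as 1, the gene-scale calls were 3 higher in low serum in wild-type cells, 5 higher and 0 lower in ΔLEO1 cells, 3 higher between genotypes at 10% serum and 0 interactions, and the ERCC-scale calls were 0 lower in either serum comparison and 1 and 4 higher between genotypes. The shares of all genes for this setting are not given here.

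With each library left out in turn, the gene-scale counts higher in low serum ran from 4 to 5 in wild-type and 5 to 9 in ΔLEO1 cells, with 0 to 1 lower in ΔLEO1 cells. Between genotypes they ran from 3 to 7 at 10% serum and 9 to 10 at 0.1% serum, and for the interaction from 0 to 3. On the ERCC scale the counts lower in low serum ran from 0 to 3 and 0 to 4, those higher in ΔLEO1 cells in low serum from 0 to 1, and those between genotypes from 3 to 5 and 4 to 9. The shares of all genes in these fits are not given here. The difference of the summed share ran from 0.00707 to 0.0110 and 0.00954 to 0.0121 percentage points between sera and from 0.00207 to 0.00475 and 0.00331 to 0.00722 between genotypes. The log2 changes that took either sign were, between sera in wild-type cells on the gene scale, −0.066 to 0.18 for H2BC21, −0.22 to 0.14 for H1-2, −0.27 to 0.35 for H4C8 and −0.30 to 0.34 for H2BC4, and in ΔLEO1 cells −0.071 to 0.46 for H2AC25. Between genotypes at 0.1% serum they were −0.26 to 0.017 for H1-10 and −0.21 to 0.26 for H3C6, and on the ERCC scale in wild-type cells between sera −0.34 to 0.23 for H2AC6. No paired analysis was possible because the libraries are numbered through all 4 groups, so that no number occurs in more than 1 of them. Of the 49 histone genes with counts that did not pass the filter, 16 had 1 to 12 counts over all libraries together.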
